A study of Mus musculus with 6 samples.

Results

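The interleukin receptor chains for IL-1, IL-18, IL-33 and IL-25 were described in early thymic progenitors that lack Tcf1. The set was given as 8 genes, Il1r1, Il1r2, Il1rap, Il1rl1, Il18r1, Il18rap, Il17ra and Il17rb, and its members were all probe sets that the annotation of the Mouse Genome 430 2.0 array assigns to 1 of these symbols. Of the 8 genes, 7 had such a probe set, 14 probe sets in all, among 18193 genes with a probe set of 1 symbol. Il1rl1, the receptor chain for IL-33, had none named in the annotation used here and was not analysed here. The set was chosen by its log2 levels and differences in this same comparison of genotypes, which had been seen when it was proposed, so these values are given as a description, with no test of them.

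Early thymic progenitors are the most immature T-lineage cells of the thymus. Here they came from C57Bl/6 mice aged 10 weeks, through a sort gate that kept cells with CD44 and kit on the surface and without CD25 or lineage markers. The groups were 3 arrays of Tcf1-/- mice, in which the DNA-binding factor Tcf1 is inactivated, and 3 arrays of mice titled Tcf1-/+, whose genotype field reads wild type, so that the labels do not settle the genotype of the controls. Each group's titles call its arrays biological replicates. Nothing states how many animals were pooled for an array, whether the replicates came from separate animals, or how Tcf1 was inactivated. About 1000 cells yielded 3 ng of RNA on average, which was amplified before hybridization.

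The IL-1 receptor family works in pairs. A ligand-binding chain (Il1r1 for IL-1, Il18r1 for IL-18, Il1rl1 for IL-33) joins an accessory chain (Il1rap for IL-1 and IL-33, Il18rap for IL-18), and the paired intracellular TIR domains recruit Myd88 and the Irak kinases, which activate NF-kB. Il1r2 binds IL-1 without an intracellular signalling domain and acts as a decoy. The IL-25 receptor belongs to another family, in which Il17rb binds the ligand and Il17ra is the shared chain, and it signals through the adaptor Act1, the product of Traf3ip2. In lymphoid tissues these receptors are known for marking innate lymphoid cells: type 2 cells respond to IL-33 and IL-25, and NK and type 1 cells respond to IL-18. T cells, mast cells and basophils also carry several of them.

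Start-site windows of the members are shown because Il18r1 and Il17rb are the genes whose genotypes did not overlap, and Il18rap encodes the partner chain of Il18r1. Each window runs from 250 bases before to 50 bases after an annotated start, as RefSeq gives it for GRCm38.p6. Windows of 7 of the 8 genes were found, 11 in all. They were searched on both strands for 4 motifs, the TCF/LEF core written as CTTTGAA or CTTTGAT, the GATA motif AGATAA, the ROR half-site AGGTCA and the E-box CAGCTG. The sequences are written 5′ to 3′ on the strand of the gene, and capitals mark the TCF/LEF core. The window of Il18r1 lies at chr1:40465756-40466055 on the plus strand, that of Il18rap at chr1:40515112-40515411 on the plus strand and that of Il17rb at chr14:30008847-30009146 on the minus strand.
Il18r1: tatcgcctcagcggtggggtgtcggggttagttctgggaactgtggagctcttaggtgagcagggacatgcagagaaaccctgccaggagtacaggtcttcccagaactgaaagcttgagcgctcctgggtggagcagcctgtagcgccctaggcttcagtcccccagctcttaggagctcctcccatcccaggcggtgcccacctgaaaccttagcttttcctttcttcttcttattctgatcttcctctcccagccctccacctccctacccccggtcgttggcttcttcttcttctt
Il18rap: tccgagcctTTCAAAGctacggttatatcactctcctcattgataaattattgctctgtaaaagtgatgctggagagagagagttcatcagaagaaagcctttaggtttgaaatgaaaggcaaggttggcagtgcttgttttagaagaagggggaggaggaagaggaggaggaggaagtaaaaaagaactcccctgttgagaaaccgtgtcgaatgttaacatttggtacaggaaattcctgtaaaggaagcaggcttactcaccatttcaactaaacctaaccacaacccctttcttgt
Il17rb: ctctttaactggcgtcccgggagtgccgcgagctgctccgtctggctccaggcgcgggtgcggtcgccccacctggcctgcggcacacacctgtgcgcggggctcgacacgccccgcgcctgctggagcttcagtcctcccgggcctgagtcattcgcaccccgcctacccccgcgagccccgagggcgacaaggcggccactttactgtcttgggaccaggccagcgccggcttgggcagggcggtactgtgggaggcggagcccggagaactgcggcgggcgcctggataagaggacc
Of the 11 windows, 1 held the TCF/LEF core, that of Il18rap, at bases 10 to 16 of the window and on the opposite strand. Over all 32851 windows of the same length, 8.65% held this core. None of the 4 motifs, as written above, occurred in these windows of Il18r1 and Il17rb, nor in the other 2 of the 3 windows of Il18r1. Forms of the E-box other than CAGCTG were not searched. The GATA motif occurred in the windows of Il1rl1, at bases 34 to 39 of 1 and at bases 148 to 153 of the other, against 11.2% of all windows. The ROR half-site occurred in 1 of these windows of Il1rl1, at bases 66 to 71, against 16.3% of all windows. A match is a run of letters and not a shown binding site.

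All values are log2 levels per probe set as deposited, and a level is not compared between probe sets. Background was taken as 5.21, the 95th percentile of 27 control probe sets for bacterial transcripts that were not spiked in. A probe set was read as measured where the mean of at least 1 genotype lay above this level, even if the other mean lay under it. Of the 14 member probe sets, 8 were, covering 6 genes, and 6 were not. All differences are the Tcf1-/- mean minus the Tcf1-/+ mean, with the standard error (SE) from limma. Tcf1-/- replicate 2 stood apart from the other arrays. It correlated with them between 0.870 and 0.893 over all probe sets, while the other arrays correlated between 0.913 and 0.933 with each other. For the 3′ and 5′ control probe sets of Tfrc this array had a log2 difference of 0.055, where the remaining 5 had differences of -1.08 to -0.62. Signal of Y-linked genes was high on Tcf1-/- replicates 2 and 3 and Tcf1-/+ replicate 2, with mean log2 levels of 8.49, 8.42 and 9.39, and low on Tcf1-/- replicate 1 and Tcf1-/+ replicates 1 and 3, at 5.004, 4.07 and 4.01. Of the markers of the sort gate, Kit differed by -1.36. The other 2 had measured probe sets of opposite sign, with Il2ra, which encodes CD25, at 0.69 on the brighter and -1.29 on the other, and Cd44 at 0.12 on the brightest and at -0.23 and 0.41 on its others. Kit was at 9.99, 7.45 and 9.60 on the Tcf1-/- arrays, against 10.80, 10.50 and 9.83 on the Tcf1-/+ arrays.

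Among the measured receptor chains, the ligand-binding chains Il18r1, Il17rb and Il1r1 had higher means in Tcf1-/- progenitors, by 2.43, 1.05 and 0.89 log2 units. Their partner chains Il18rap, Il17ra and Il1rap differed by 0.11, -0.12 and 0.10 on their brighter probe sets. Of the 6 measured genes, 5 had a higher and 1 a lower Tcf1-/- mean on the probe set of highest mean, where 50.3% of the 13157 measured genes had a higher one. The median difference of the 6 was 0.50, against 0.0039 over the 13157 genes. The count of 5 includes Il18rap and Il1rap, whose signs were not stable, and it was 3 without Tcf1-/+ replicate 1 and 4 with the mean of all probe sets of a gene. No probe set of the array passed limma's test with Benjamini-Hochberg adjustment over all 45037 probe sets, so 0 members were called, beside 0% of all probe sets. At an unadjusted p under 0.05 limma had 2917 of the 45037 probe sets and an unmoderated test with unequal variances had 1735, with 0 after adjustment. The arrays did not overlap between genotypes for 3 of the 8 measured member probe sets. Of these, 2 were higher in Tcf1-/-, beside 6.3% of all measured probe sets, and 1 was lower, beside 6.63%.

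**Figure D1:**
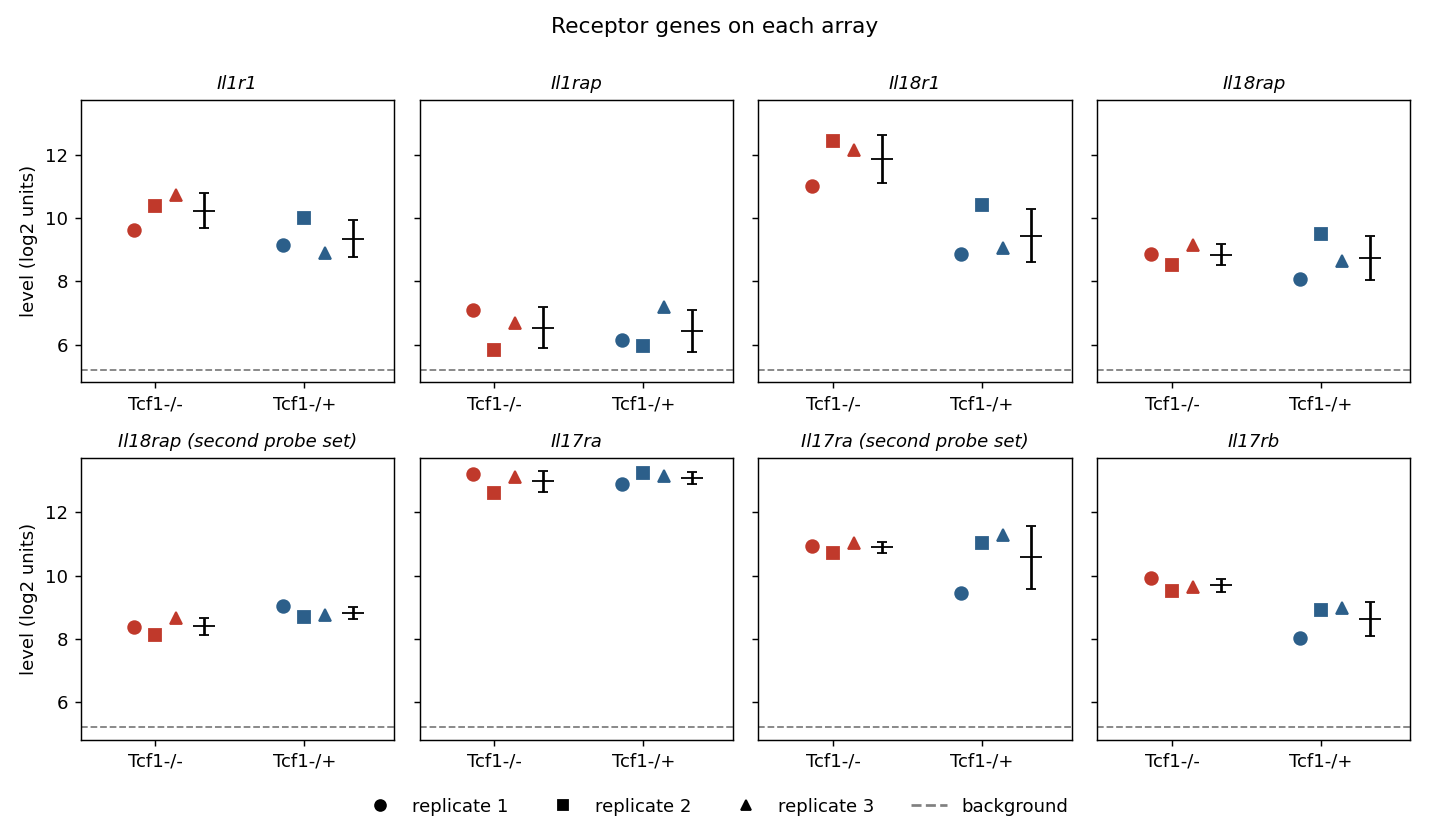
Log2 level of the 8 measured member probe sets on each of the 6 arrays, Tcf1-/- left and Tcf1-/+ right, with mean and SD (n = 3) beside the points and the background level of 5.21 as a dashed line. The arrays of the genotypes are apart for Il18r1 and Il17rb, with Tcf1-/- higher, and for the second probe set of Il18rap, with Tcf1-/- lower.

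Il18r1 encodes the chain that binds IL-18, a cytokine that drives interferon production in NK and T cells. Its log2 levels were 11.02, 12.45 and 12.15 on the Tcf1-/- arrays, against 8.87, 10.42 and 9.05 on the Tcf1-/+ arrays. Every Tcf1-/- array lay above every Tcf1-/+ array, with a gap of 0.60, and the Tcf1-/+ arrays were themselves spread over 1.55. Tcf1-/- arrays averaged 11.87 ± 0.75 and Tcf1-/+ arrays 9.45 ± 0.85 (SD, n = 3 each). The difference of 2.43 (SE 0.56) corresponds to a 5.38-fold higher level. Of the 13157 measured genes, 0.585% had a difference at least as large. Leaving out 1 array at a time gave differences between 2.14 and 2.91. Within the arrays of low Y-linked signal the difference was 2.06 (1 Tcf1-/- and 2 Tcf1-/+ arrays). Within those of high Y-linked signal it was 1.88 (2 Tcf1-/- and 1 Tcf1-/+ array).

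Il18rap encodes the accessory chain without which IL-18 does not signal. It was measured by 2 probe sets, and these differed in direction. The brighter was at 8.88, 8.50 and 9.16 on the Tcf1-/- arrays, against 8.08, 9.49 and 8.65 on the Tcf1-/+ arrays. The Tcf1-/+ arrays held both the lowest and the highest value, so the genotypes overlapped, and the difference was 0.11 (SE 0.41). The other probe set was at 8.39, 8.13 and 8.67 in Tcf1-/-, against 9.04, 8.70 and 8.74 in Tcf1-/+. Here every Tcf1-/- array lay below every Tcf1-/+ array, though by a gap of 0.036, and the difference was -0.43 (SE 0.23). The difference of the brighter probe set was 0.51 within the arrays of low and -0.66 within those of high Y-linked signal, while the other gave -0.50 and -0.31. The sign for Il18rap thus depended on the probe set and on which arrays were used, and no direction is given for the gene.

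Il17rb encodes the chain that binds IL-25, a cytokine that activates type 2 innate lymphoid cells. It was at 9.91, 9.53 and 9.63 on the Tcf1-/- arrays, against 8.03, 8.90 and 8.98 on the Tcf1-/+ arrays. The Tcf1-/- arrays lay within 0.38 of each other and above all Tcf1-/+ arrays, of which replicate 1 was the lowest. Tcf1-/- arrays averaged 9.69 ± 0.20 and Tcf1-/+ arrays 8.64 ± 0.53 (SD, n = 3 each), which is 1.05 log2 units (SE 0.31) or 2.08-fold higher in Tcf1-/-. Among the measured genes 5.18% had a difference at least as large. Without Tcf1-/+ replicate 1 the difference was 0.75, the smallest with 1 array left out. It was 1.41 within the arrays of low and 0.68 within those of high Y-linked signal.

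Il17ra, the chain shared by the receptors for IL-25 and IL-17, had 2 measured probe sets. The brighter was at 13.22, 12.61 and 13.12 in Tcf1-/-, against 12.89, 13.26 and 13.16 in Tcf1-/+, a difference of -0.12 (SE 0.25). The lowest value was that of Tcf1-/- replicate 2, and without this array the difference was 0.074. The other probe set was at 10.92, 10.71 and 11.05 in Tcf1-/-, against 9.45, 11.03 and 11.28 in Tcf1-/+, a difference of 0.31 (SE 0.50). Of these values 5 lay close together, and Tcf1-/+ replicate 1 was the exception. The genotypes overlapped on both probe sets.

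Il1r1, the signalling receptor for IL-1, was at 9.62, 10.37 and 10.73 on the Tcf1-/- arrays, against 9.15, 10.01 and 8.88 on the Tcf1-/+ arrays. Tcf1-/+ replicate 2 lay above Tcf1-/- replicate 1, so the genotypes overlapped over all 6 arrays. Tcf1-/- arrays averaged 10.24 ± 0.56 and Tcf1-/+ arrays 9.35 ± 0.59 (SD, n = 3 each). The difference was 0.89 (SE 0.42) or 1.85-fold, and 6.94% of measured genes had one at least as large. The overlapping arrays differed in Y-linked signal. Among the arrays of low signal the Tcf1-/- array was above both Tcf1-/+ arrays, with a difference of 0.60, and among those of high signal both Tcf1-/- arrays were above the Tcf1-/+ array, with a difference of 0.53. A fit that includes the Y-linked level gave 0.58. The part of the animals' sex in the levels of Il1r1 was not tested. A further probe set of Il1r1 lay under background on all 6 arrays.

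Il1rap, the accessory chain of the receptors for IL-1 and IL-33, had 5 probe sets, of which 1 was measured. That probe set was at 7.10, 5.83 and 6.69 in Tcf1-/-, against 6.14, 5.96 and 7.20 in Tcf1-/+, a difference of 0.10 (SE 0.47) with wide overlap. Its sign turned when Tcf1-/- replicate 1, Tcf1-/+ replicate 1 or Tcf1-/+ replicate 2 was left out. Of the other 4 probe sets, 1 lay above background on a single array, at 6.88 on Tcf1-/+ replicate 2, where the Tcf1-/- arrays stood at 4.16, 3.43 and 5.06 and Tcf1-/+ replicates 1 and 3 at 4.26 and 4.03. Il1r2, the decoy receptor, was at 5.14, 5.50 and 4.86 in Tcf1-/-, against 4.99, 5.50 and 4.34 in Tcf1-/+. With 1 array of each genotype above background and both means under it, the level of Il1r2 was not measurable on these arrays and no difference is read.

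**Figure D2:**
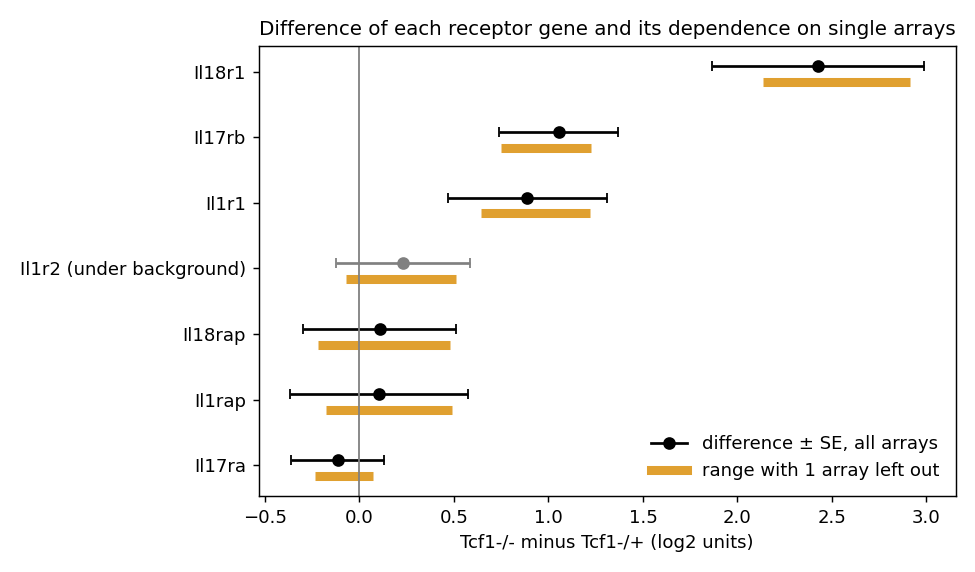
Difference of each of the 7 member genes with a probe set, Tcf1-/- minus Tcf1-/+ in log2 units, on its probe set of highest mean (point with SE) and the range when 1 array is left out (bar). The ranges of Il18r1, Il17rb and Il1r1 lie above 0, with lowest values of 2.14, 0.75 and 0.64, while those of Il1r2, Il18rap, Il1rap and Il17ra cross it.

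The members were set against each other over the 6 arrays. Pearson's r was 0.92 between Il18r1 and Il1r1, 0.78 between Il18r1 and Il17rb and 0.56 between Il1r1 and Il17rb. Between the partners of a receptor it was 0.37 for Il18r1 and Il18rap, 0.13 for Il17rb and Il17ra and -0.40 for Il1r1 and Il1rap. These 6 points share their genotypes and their arrays, and the values are a description. Of 6392 genes searched, the 3 whose levels were most like those of Il18r1 were Ifi35, Maf and Cd7, with r of 0.987, 0.986 and 0.985 over the 6 arrays. Maf, a transcription factor of T and innate lymphoid cells, was at 11.71, 12.99 and 12.28 in Tcf1-/-, against 9.11, 10.46 and 9.56 in Tcf1-/+. For Il17rb they were Arap3, Tnfrsf21 and 2610001J05Rik, with r of 0.978, 0.976 and 0.970. For Il1r1 they were Ddx60, Tsc22d2 and Rab11fip1, with r of 0.981, 0.974 and 0.969. For Il1rap they were Gins3, Tspan33 and Chchd7, for Il18rap Cln3, Nfia and Mef2a, and for Il17ra Pikfyve, Gtf2f1 and Fam126a, with r between 0.977 and 0.993.

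Of the 8 receptor genes, 5 lie side by side on chromosome 1 in the RefSeq annotation, in the order Il1r2, Il1r1, Il1rl2, Il1rl1, Il18r1 and Il18rap, with Il1rl2 the only protein-coding gene among them that is no member. Il1rap is on chromosome 16, Il17ra on chromosome 6 and Il17rb on chromosome 14. The measured neighbours in this block differed in direction. Il1rl2, the receptor for IL-36, was at 4.35, 6.73 and 5.65 in Tcf1-/-, against 5.29, 6.81 and 7.38 in Tcf1-/+, with a difference of -0.92 (SE 0.78). It lies between Il1r1 and Il1rl1, and Il18rap follows Il18r1. Outside the block, Map4k4 before it differed by -0.19 (SE 0.44) and Slc9a2 after it by -0.24 (SE 0.46), both with overlap, and Slc9a4 lay under background. Il18r1 was the gene of the block whose arrays did not overlap on the probe set of highest mean.

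**Figure D3:**
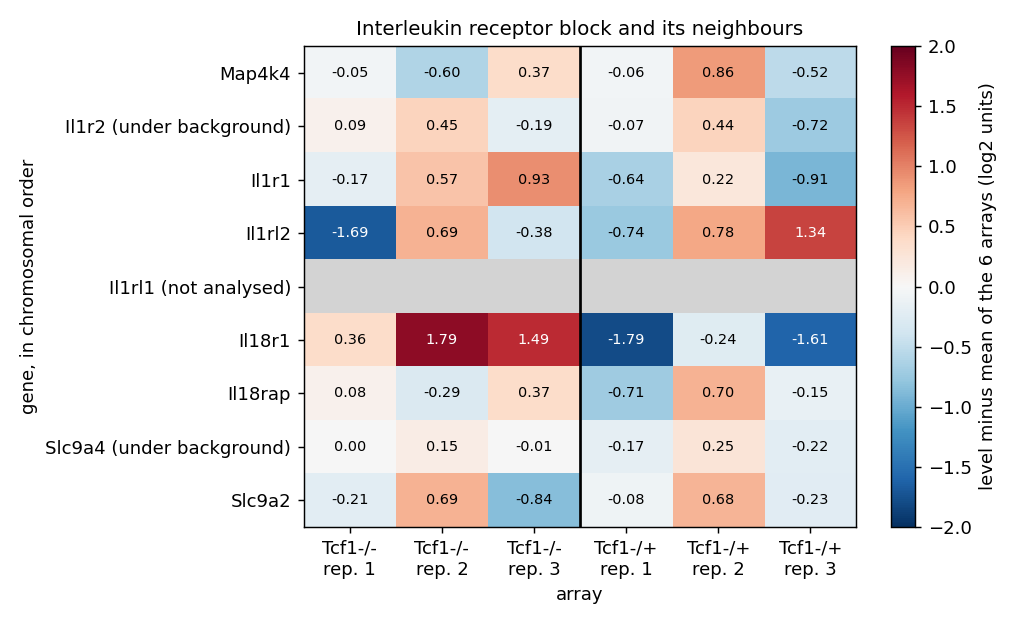
Log2 level minus the gene's mean over the 6 arrays, for the interleukin receptor genes of chromosome 1 and their protein-coding neighbours in chromosomal order (rows), with Tcf1-/- arrays left of the line and Tcf1-/+ arrays right of it; grey marks Il1rl1, which was not analysed. The row of Il18r1 separates the genotypes, while the rows of Il1rl2 and Il18rap hold high and low values in both.

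The rest of the pathway was read from 5 lists, which held 49 genes with a probe set. Of these limma called 0 in either direction over all probe sets, 5 of the 39 above background had an unadjusted p under 0.05, and the lowest adjusted p was 0.446. Of the other receptors and decoys, 5 of 9 were measured, 2 with higher and 3 with lower Tcf1-/- means. Il17re, a receptor chain for IL-17C, differed by 0.58 (SE 0.56) and Il18bp, a soluble decoy for IL-18, by 0.13 (SE 0.25). The antagonist gene Il1rn lay under background. Of 8 ligand genes on the array, 3 were above background in at least 1 genotype. Il18 was at 5.16, 3.91 and 5.34 in Tcf1-/-, against 6.26, 4.65 and 6.32 in Tcf1-/+, with the Tcf1-/- mean under background. Il1b lay close to background in both, with means of 5.38 in Tcf1-/- and 5.62 in Tcf1-/+, and Il17b averaged 5.88 in Tcf1-/- and 5.47 in Tcf1-/+. Il1a, Il33, Il25 and Il17a, the other main ligands of these receptors on the array, had means under background in both genotypes. Il25 was above it on 1 Tcf1-/- array. Of the processing genes, Casp1, which encodes the protease that matures IL-1 beta and IL-18, was at 7.77, 8.17 and 7.03 in Tcf1-/-, against 8.91, 8.44 and 8.59 in Tcf1-/+. The genotypes did not overlap, and the difference was -0.99 (SE 0.34).

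All 15 adaptors and kinases with a probe set lay above background in at least 1 genotype. On the probe set of highest mean, 12 had higher and 3 lower Tcf1-/- means. This count depended on the choice of probe set. Of the 12 genes, 6 had another measured probe set of opposite sign, among them Peli1 with all 4 of its others and Tollip with its only other. With the mean of all measured probe sets of a gene, 8 were higher and 7 lower. The median difference was 0.31 on the probe sets of highest mean and 0.084 on the means, so no direction is given for the list. Centred on the mean of each gene, the list stood at -0.071, 0.41 and 0.024 in Tcf1-/-, against -0.11, -0.20 and -0.056 in Tcf1-/+. The genotypes overlapped, and Tcf1-/- replicate 2 was the highest. Myd88, the first adaptor of the IL-1 and IL-18 receptors, differed by 0.27 (SE 0.47) and Traf3ip2, the adaptor of the IL-25 receptor, by -0.014 (SE 0.48). Tab1, a partner of the kinase TAK1, differed by -1.24 (SE 0.45) and Tab3, another partner, by 0.73 (SE 0.34), both without overlap. Map3k7, which encodes TAK1, had a difference of 0.77 (SE 0.25) on the probe set of highest mean, but 2 of its 4 other measured probe sets had the opposite sign.

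Of the NF-kB subunits and feedback targets, 6 had higher and 6 lower means, with a median difference of -0.042. With the mean of all measured probe sets of a gene, 8 were higher and 4 lower. Rel, the c-Rel subunit, was at 9.18, 9.47 and 9.52 in Tcf1-/-, against 7.91, 8.43 and 7.61 in Tcf1-/+. The genotypes did not overlap, and the difference was 1.40 (SE 0.27), with a limma adjusted p of 0.446. Among the feedback genes induced by NF-kB, Zc3h12a, an RNase, differed by 1.10 (SE 0.42), and Nfkbia, which encodes the inhibitor of NF-kB, by 0.60 (SE 0.34). Tnfaip3, which encodes the ubiquitin-editing enzyme A20, differed by -0.25 (SE 0.63). The 2 measured probe sets of Birc3 pointed in opposite directions, at -0.37 (SE 0.24) on the brighter and 0.45 on the dimmer, and Nfkbia had the opposite sign on 1 of its 4 other measured probe sets, at -0.063. For Nfkbiz the difference was 1.23 (SE 0.69), and 1 of its 2 other measured probe sets had the opposite sign.

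**Figure D4:**
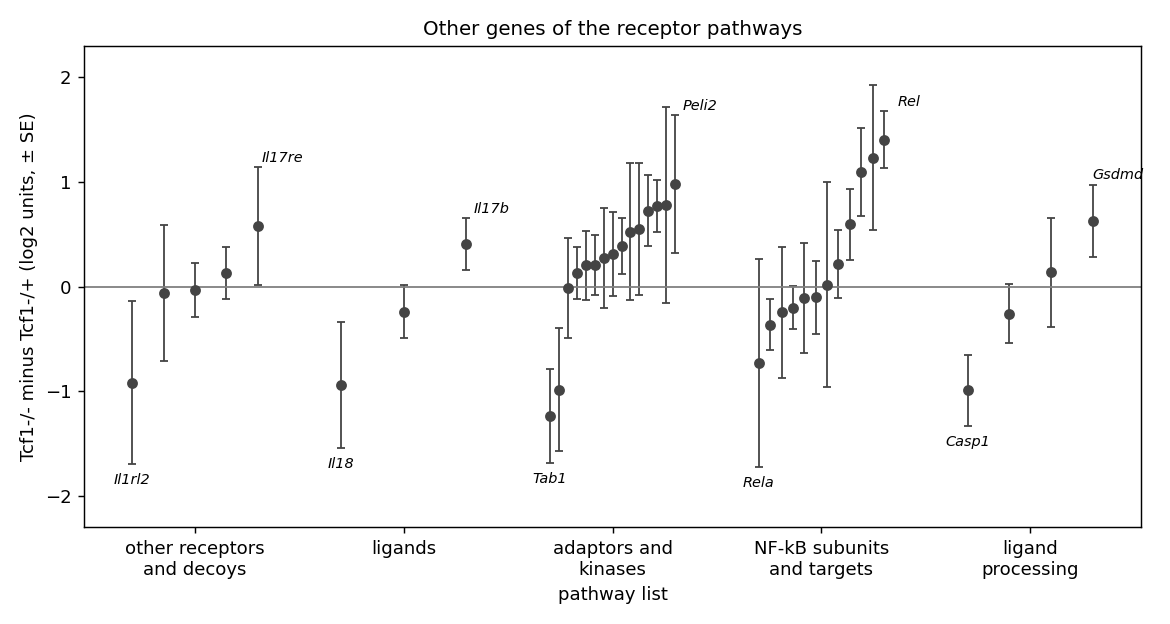
Difference of the measured genes of 5 pathway lists, Tcf1-/- minus Tcf1-/+ in log2 units with SE, ordered by size within each list; the outermost genes of each list are named. Every list has points on both sides of 0. The points show the probe set of highest mean, and of the 12 adaptors and kinases above 0, 6 have another measured probe set of opposite sign.

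Marker lists of several cell types that carry these receptors had means that lay apart between the genotypes. In sorted bulk samples, a difference in the number of cells of a type and a difference in RNA per cell cannot be told apart. The 10 marker lists held 81 genes with a probe set, 66 of them above background. Limma called 0 of these. An unadjusted p under 0.05 in limma was met by 22 of the 66, beside 2917 of all 45037 probe sets, and the lowest adjusted p was 0.407. These bases are unlike. The 66 are probe sets of highest mean above background, and the 45037 include those under background and further probe sets of a gene. The 12 mast cell and basophil markers were all above background in at least 1 genotype, and all had higher Tcf1-/- means. Tpsab1 and Fcer1a were above it only by the Tcf1-/- mean, with Tcf1-/+ means of 4.61 and 5.10. The median difference was 1.33. Without overlap, 5 of the 12 were higher, Tpsab1 among them, beside 6.3% of all measured probe sets. Centred likewise, the list stood at 0.97, -0.041 and 1.67 in Tcf1-/-, against -0.85, -0.86 and -0.89 in Tcf1-/+. The log2 of their summed level lay between 13.3 and 14.4 in Tcf1-/- and between 11.8 and 12.2 in Tcf1-/+. Mcpt8, a basophil protease gene, and the mast cell protease genes Mcpt2 and Mcpt1 differed by 3.14 (SE 0.60), 2.44 (SE 0.65) and 4.49 (SE 1.38), and Cpa3, a mast cell carboxypeptidase, by 1.09 (SE 0.37). Of the Tcf1-/- arrays, replicate 2, which stood apart from the other arrays, was the lowest for this list and for Il17rb, and the highest for Il18r1. Replicate 3 was the highest for this list and for Il1r1. For the list, Il18r1 and Il17rb, every Tcf1-/- array lay above every Tcf1-/+ array, while for Il1r1 the genotypes overlapped. The part of these cells in the receptor levels was not tested.

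Of the type 2 innate lymphoid markers, 9 of 14 on the array were measured, 6 with higher and 3 with lower Tcf1-/- means. The median difference was 0.32 over these 9 and 0.23 over all 14. The centred list mean was 0.15, 1.04 and 0.39 in Tcf1-/-, against -0.32, -0.59 and -0.67 in Tcf1-/+, and the log2 of the summed level lay between 12.7 and 14.1 in Tcf1-/- and between 11.1 and 11.4 in Tcf1-/+. Such a sum follows the brightest probe sets, and Il7r made up between 47.2% and 55.9% of it on each array. Of the 9, 3 were higher in Tcf1-/- without overlap and 0 lower, beside 6.3% and 6.63% of all measured probe sets. These 3, Id2, Icos and Il7r, are not limited to type 2 cells, and they differed by 3.19 (SE 0.49), 3.22 (SE 0.56) and 2.00 (SE 0.40). Rora, a transcription factor of type 2 cells, differed by 1.35 (SE 0.54) with overlap, and Gata3, which type 2 cells share with T-cell precursors, by -0.39 (SE 0.40). The cytokine genes Il13, Il5 and Il4 and the markers Hpgd and Il9r had means under background in both genotypes. Il13 was above it on 2 Tcf1-/- arrays and 1 Tcf1-/+ array. Il4 and Il9r were above it on 1 Tcf1-/- array each, and Hpgd on 1 Tcf1-/+ array. Type 2 innate lymphoid cells commonly carry CD25, and the sort gate kept cells without it on the surface. RNA of Il2ra, which encodes CD25, was above background on all 6 arrays on its brighter probe set. Its difference was 0.69 there and -1.29 on the other measured probe set. RNA does not measure CD25 on the surface. The part of this list's genes in the levels of Il18r1 and Il17rb was not tested.

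Of the NK and type 1 markers, 9 of 12 were measured, 6 with higher and 3 with lower Tcf1-/- means. The median difference was 1.26 over these 9 and 0.13 over all 12, so it depended on the background filter. Klrk1 and Cxcr6 passed this filter only by the Tcf1-/- mean, and Xcl1 and Eomes only by the Tcf1-/+ mean. The log2 of their summed level lay between 12.6 and 13.2 in Tcf1-/- and between 10.5 and 11.5 in Tcf1-/+. Of the 9, 3 were higher in Tcf1-/- without overlap and 1 lower, beside 6.3% and 6.63% of all measured probe sets. The 3 higher were Gzmb, Cxcr6 and Gzma, at 4.06 (SE 0.69), 4.50 (SE 1.09) and 3.05 (SE 1.14). Gzmb and Gzma encode granule proteases and Cxcr6 a chemokine receptor, and for Gzma the gap between genotypes was 0.052. For Cxcr6 the Tcf1-/+ mean of 4.92 lay under background, with 1 Tcf1-/+ array above it, so the size of its difference is uncertain. Klrd1, an NK receptor chain, differed by -1.49 (SE 0.60), with every Tcf1-/- array below every Tcf1-/+ array. The chemokine gene Xcl1 and Eomes, a transcription factor of NK cells, differed by -1.28 (SE 1.05) and -0.75 (SE 0.68), with overlap. Tbx21, Ncr1 and Ifng, also on this list, had means under background in both genotypes. Tbx21 was above background on 1 Tcf1-/+ array and Ncr1 on 1 array of each genotype. The highest Tcf1-/- array of this list was replicate 3, with a centred list mean of 0.85 against 0.73 on replicate 2. For Il18r1 the highest Tcf1-/- array was replicate 2. In Tcf1-/+, replicate 2 was the highest for both, with a centred list mean of 0.16, against -1.20 and -0.95 on replicates 1 and 3. All 5 measured type 3 markers had higher Tcf1-/- means, with a median difference of 1.47, and their summed log2 level lay between 11.08 and 11.97 in Tcf1-/- and between 8.92 and 10.4 in Tcf1-/+. Of the 5, Lta had a Tcf1-/+ mean under background, at 5.04. Ccr6, a chemokine receptor of type 3 and other cells, differed by 3.56 (SE 0.59). Their part in the receptor levels was not tested.

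Neutrophil and monocyte markers, whose cells carry Il1r2, had higher Tcf1-/- means for 8 of 10 measured genes, but the list means overlapped, between -0.17 and 1.51 in Tcf1-/- and between -1.12 and 0.77 in Tcf1-/+. The 7 progenitor markers were all above background and had lower Tcf1-/- means for 4 genes and higher for 3 (6 and 1 with the mean of all measured probe sets of a gene), with Flt3, a receptor of multipotent progenitors, at -1.53 (SE 0.42) and Cd34 at -1.24 (SE 0.36). The median differences were 0.069 for 3 B-cell, 1.97 for 3 erythroid, 0.31 for 4 stromal and epithelial and 0.067 for 4 mature T-cell genes. With the genes under background included, they were 0.13, 1.57, 0.22 and 0.15. Their list means overlapped for the B-cell, erythroid and mature T-cell genes, and not for the stromal and epithelial genes, at 0.049 to 0.32 in Tcf1-/- and -0.38 to -0.059 in Tcf1-/+. Of the 4 mature T-cell genes, 1 was higher in Tcf1-/- without overlap and 1 lower, beside 6.3% and 6.63% of all measured probe sets. The co-receptor gene Cd4 had a difference of 2.93 (SE 0.61), with a second probe set at 1.61, and Cd5, an inhibitor of T-cell receptor signals, had one of -1.12 (SE 0.38).

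**Figure D5:**
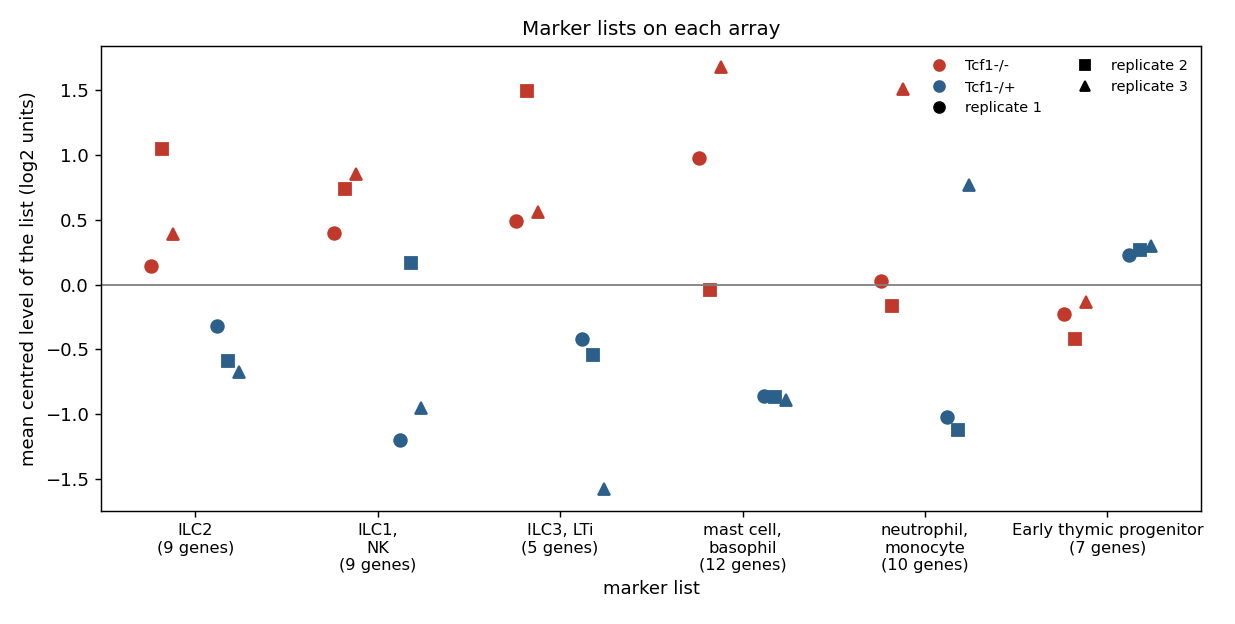
Mean of each marker list on each array, every gene centred on its mean over the 6 arrays, in log2 units, with Tcf1-/- left of Tcf1-/+ in each list and symbols for the replicate numbers. The Tcf1-/- arrays lie above the Tcf1-/+ arrays for the innate lymphoid and mast cell lists and below them for the early thymic progenitor list, and neutrophil markers overlap.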

How the data were processed

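RNA of sorted early thymic progenitors was measured on 6 arrays. The authors deposited 1 log2 value for each probe set and array; how they were summarized and normalized is not stated in the labels or file used, and the log2 scale was taken from the values (2.15 to 14.8, array medians 5.80 to 5.86). They were used as deposited. Of 45101 probe sets 64 controls were left out and 45037 tested; 34945 had 1 symbol, 932 several and 9160 none here, and 34741 gene identifiers matched the RefSeq table of GRCm38.p6. The probe set of highest mean represented a gene. Genotypes were compared over all 6 arrays with limma 3.58.1 in R 4.3.3, two-sided, Benjamini-Hochberg adjusted over all probe sets, threshold 0.05, after a test on simulated data. Exact permutation of 3 against 3 arrays cannot give a p under 0.1, so that 3 arrays a genotype limit the precision. P-values measure the spread between arrays, which may be technical.

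The members and lists were chosen with earlier results of these data known. The text names all members, the 3 genes most like each measured member (from genes brighter on average than the median probe set, with an SD of at least 0.5) and up to 3 genes of smallest unadjusted p per list; Myd88, Traf3ip2, Nfkbia, Tnfaip3, Birc3, Rora, Gata3, Peli1, Tollip, Klrd1, Xcl1, Eomes, Cpa3, Cd44, Il2ra and the genes beside the chromosome 1 block were added after their values were seen. Alternatives were the replicate block, quantile normalization, a common median, a floor, a filter, array weights, a Y-linked covariate, arrays left out, other summaries per gene, another background and unequal variances. Same-numbered arrays deviated together with correlations of 0.030, 0.045 and 0.012, under 0.1, so the numbers were not taken as pairs.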

Additional observations from a re-analysis of the deposited data

How the results depend on the processing

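The count of called probe sets was 0 under every alternative run, as was that of called list genes under those that keep single probe sets. The replicate block left the count of called probe sets at 0, the higher members at 5 and the median member difference at 0.50, with a lowest adjusted p of 0.616 against 0.315 without it. Same-numbered arrays did not deviate together, so the block shows no pairing. With 1 array left out, the number of measured members with a higher Tcf1-/- mean lay between 3 (without Tcf1-/+ replicate 1) and 6 (without Tcf1-/- replicate 2), and the median member difference between 0.35 and 0.83. Il18r1, Il17rb and Il1r1 kept a positive sign under all alternatives run, between 1.88 and 2.91, 0.68 and 1.41, and 0.42 and 1.22. The lowest value of Il1r1 is the mean with its probe set under background. Signs turned for the other members. Il1rap lay between -0.18 and 0.49 with 1 array left out, with -0.18, -0.043 and -0.13 without Tcf1-/- replicate 1, Tcf1-/+ replicate 1 and Tcf1-/+ replicate 2, and was -0.17 as the mean of its probe sets. Il18rap lay between -0.22 and 0.48 with 1 array left out and was -0.052 without Tcf1-/- replicate 3, -0.22 without Tcf1-/+ replicate 1, -0.11 with the Y-linked covariate and -0.16 as the mean of its probe sets. Il17ra lay between -0.24 and 0.074 with 1 array left out and was 0.095 as the mean of its probe sets. Il1r2, under background, lay between -0.072 and 0.51 with 1 array left out. Within the arrays of high Y-linked signal, a split chosen after seeing the data, Il18rap was at -0.66, Il1r2 at -0.31 and Il17ra at -0.39, and within those of low signal Il17ra was at 0.20. Adaptors and kinases with a higher mean numbered 8 in place of 12 with the mean of all measured probe sets, NF-kB genes 8 in place of 6 and progenitor markers 1 in place of 3, also chosen after seeing the data. The causes of these turns were not tested. Il1r2 and 6 of the 14 member probe sets are limited by signal under background.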
